A study of Homo sapiens with 8 samples.

Results

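Of the 18388 genes counted by SLAM-Seq in U-2OS cells, 10 encode parts of the LINC complex or of the nuclear lamina and its membrane anchors: SYNE1, SYNE2, SYNE3, SUN1, SUN2, LMNA, LMNB1, LMNB2, EMD and TMPO. SYNE1 was chosen by its large difference in total RNA between siCGGBP1 and siControl, and the other 9 genes were taken because their products work with it. Its total RNA is therefore given as a description, without a p-value. U-2OS is an osteosarcoma cell line, here the Tet-ON derivative that expresses the tetracycline-regulated transactivator. Cells received 50 nM of control siRNA (siControl) or of siRNA against CGGBP1 (siCGGBP1) for 72 h, and all titles also name DMSO. Both groups were labelled with 75 µM 4-thiouridine (4sU) for the last 60 min, with 3 libraries each. Single siControl libraries with 0 and 200 µM 4sU entered no test. The study's methods call its replicates biological, but whether they were separate transfections is not given in the sources used here, so the p-values measure the spread between these libraries.

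The nuclear envelope consists of an outer and an inner membrane, and LINC complexes span both. Nesprins, the products of the SYNE genes, sit in the outer membrane, bind actin, kinesin or dynein in the cytoplasm and reach the lumen with their KASH ends. SUN1 and SUN2 cross the inner membrane, hold these KASH ends and bind the lamina below. The lamina is a filament meshwork of A-type lamins from LMNA and B-type lamins from LMNB1 and LMNB2. EMD encodes emerin and TMPO the LAP2 proteins, LEM-domain proteins that tie the lamina to chromatin. CGGBP1, the protein depleted here, binds CGG repeats in DNA, and the study asked how its loss alters transcription.

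SYNE1 (ENSG00000131018) encodes nesprin-1, a giant protein built largely of spectrin repeats, and spans 516115 bases of the minus strand of chromosome 6 (GRCh38, 152121687 to 152637801). RefSeq (GRCh38.p14) gives it 4 promoter windows of 300 bases, each from 250 bases before to 50 after a transcript start. SYNE1 windows 1 and 2 are printed because SYNE1 is the member whose RNA rose, and the first SYNE2 window because SYNE2 is its nearest relative. Capitals mark uninterrupted tracts of at least 2 CGG repeats, the letters CGGCGG read on either strand. The windows lie at chr6:152637313-152637612 and chr6:152636841-152637140 on the minus strand, and at chr14:63852754-63853053 on the plus strand.
SYNE1 window 1: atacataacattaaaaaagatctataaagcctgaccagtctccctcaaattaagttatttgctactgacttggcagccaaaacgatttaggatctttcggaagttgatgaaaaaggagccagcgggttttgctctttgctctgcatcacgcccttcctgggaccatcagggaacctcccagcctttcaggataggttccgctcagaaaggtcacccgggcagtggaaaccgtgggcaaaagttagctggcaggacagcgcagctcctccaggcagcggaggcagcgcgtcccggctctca
SYNE1 window 2: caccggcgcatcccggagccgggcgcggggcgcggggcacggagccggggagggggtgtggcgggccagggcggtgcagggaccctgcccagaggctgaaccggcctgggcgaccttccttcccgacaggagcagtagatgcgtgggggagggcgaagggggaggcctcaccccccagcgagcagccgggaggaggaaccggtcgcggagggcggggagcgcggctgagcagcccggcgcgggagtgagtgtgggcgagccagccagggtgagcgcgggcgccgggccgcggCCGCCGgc
SYNE2 window 1: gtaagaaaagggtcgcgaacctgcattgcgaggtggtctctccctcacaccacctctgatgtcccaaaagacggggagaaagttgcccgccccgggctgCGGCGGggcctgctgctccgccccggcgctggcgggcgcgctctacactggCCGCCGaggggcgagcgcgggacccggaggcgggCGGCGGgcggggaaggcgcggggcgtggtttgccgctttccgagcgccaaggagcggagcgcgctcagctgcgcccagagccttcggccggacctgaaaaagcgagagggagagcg
SYNE1 window 1 held no tract and had a GC content of 51.7%, while window 2 had a single tract next to its downstream end and a GC content of 79.0%. SYNE1 windows 3 and 4, not printed, held no tract and had GC contents of 34.3% and 43.0%. The SYNE2 window held 3 tracts. None of the 9 members with a window had a tract of 3 or more repeats inside it, which 14.7% of the 7930 tested genes with a window had. LMNB1 window 2, not printed, ends on the last base of a tract, so the full length of that tract is not known. Tracts of at least 2 repeats lay in a window of all 9 members, against 59.6% of these tested genes and 29.6% of all 35116 windows. SUN1 had no entry. A tract is a match of letters and does not show binding.

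Between 10127519 and 14221516 reads were counted in each of the 6 libraries at 75 µM, 19011714 at 0 µM and 11341561 at 200 µM. Levels are given as reads per 1000000 (rpm) after TMM scaling. The libraries were made from the 3′ ends of transcripts, so that reads do not scale with transcript length and isoforms with a common 3′ end are not told apart. CGGBP1, the target of the siRNA, had 107, 92.6 and 76.3 rpm in siControl and 18.0, 9.97 and 30.8 rpm in siCGGBP1 (log2 fold change -2.22 with a standard error, SE, of 0.39, edgeR adjusted p = 0.0137). Of 9 osteosarcoma and mesenchymal markers, 7 were found and 6 tested. Their summed level was 3735 to 4607 rpm in siControl and 5434 to 7280 rpm in siCGGBP1, and the collagen and matrix genes COL1A1 and SPARC, 2 of the 6, were called higher, against 0.444% of all tested genes. CD44, a surface receptor for hyaluronan in the same list, was lower in all 3 siCGGBP1 libraries, at 85.6 against 156 rpm, without a call (log2 fold change -0.87, edgeR adjusted p = 0.103). Epithelial markers summed to 10.3 to 12.9 rpm in siControl and 14.5 to 19.02 rpm in siCGGBP1 over 5 of 7 genes found, with CDH1 at 0 in every library. The sums came mainly from EPCAM (means of 5.87 rpm in siControl and 10.8 rpm in siCGGBP1) and CLDN4 (5.25 and 4.25 rpm). Over 5 of 7 blood markers the sums were 6.24 to 9.80 and 0.489 to 13.6 rpm, with CD3E at 0 throughout and CD68 at means of 7.89 and 5.71 rpm. Muscle and neuron markers, 10 of 12 found, summed to 124.8 to 152.5 and 106.4 to 114.2 rpm, with CKM and TTN at 0 throughout. These sums came mainly from the neuron markers TUBB3 (means of 77.6 and 58.4 rpm), RBFOX3 (42.1 and 33.3 rpm) and SNAP25 (13.2 and 11.3 rpm), none of them called. What these differences contribute to the values of the envelope genes was not tested. In bulk RNA, fewer cells that express a gene and less RNA per cell cannot be told apart.

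SYNE1 was the member whose total RNA rose. It had 34.9, 32.0 and 49.0 rpm in the siControl libraries and 221, 299 and 262 rpm in the siCGGBP1 libraries. The siControl libraries without 4sU and with 200 µM had 47.2 and 27.8 rpm. All 3 siCGGBP1 libraries lay above all 5 siControl libraries, and the lowest of them was 4.52-fold above the highest siControl library. The means were 38.7 ± 9.06 and 261 ± 38.9 rpm (SD, n = 3 each), a 6.74-fold difference with a fitted log2 fold change of 2.75 (SE 0.25). Over 11 other settings of the fit it stayed between 2.63 and 2.96. The siCGGBP1 library with the most remaining CGGBP1, replicate 3, had 262 rpm of SYNE1, between the other two. Replicate 2, with the least CGGBP1, had the most SYNE1. With SYNE1, 1 of the 9 tested members was called higher (adjusted p under 0.05 and absolute log2 fold change above 1), against 0.444% of the 10138 tested genes. SYNE1 was also the member higher without overlap between the groups, which held for 12.0% of tested genes. Because SYNE1 was chosen on this contrast, neither count is evidence about the members.

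**Figure D1:**
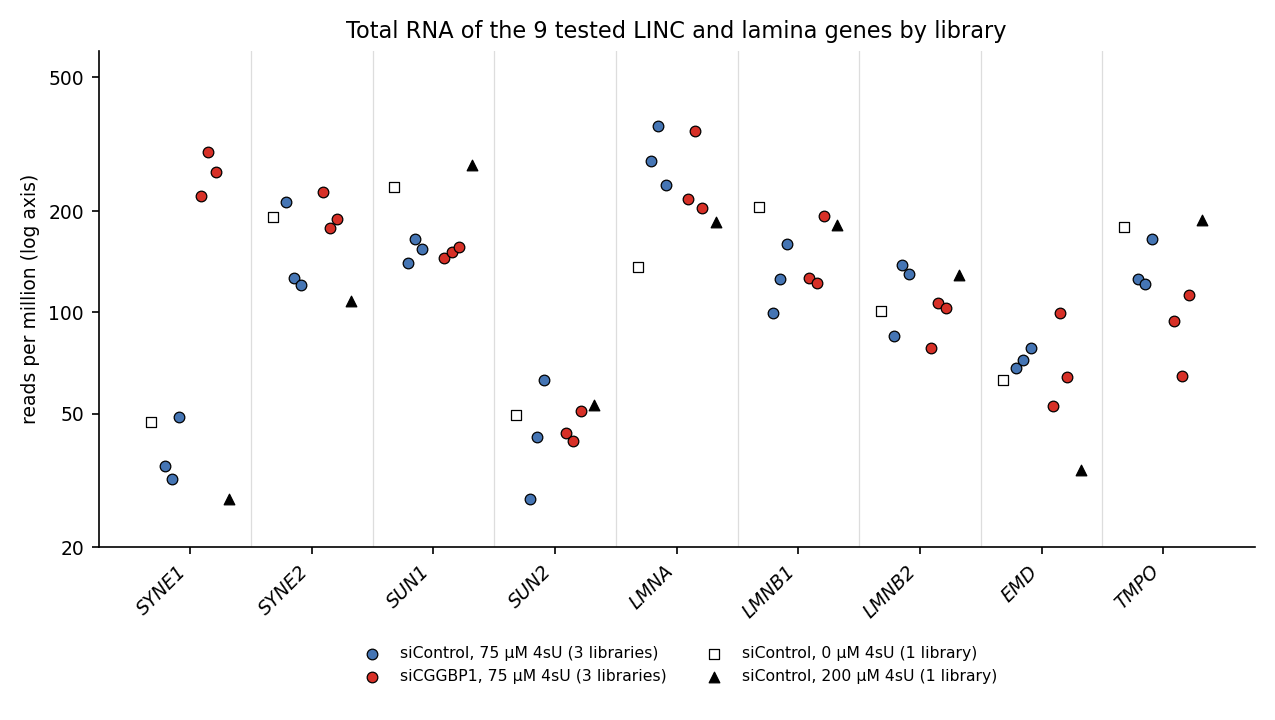
Total RNA of the 9 tested members in each library, in rpm on a log axis; circles are libraries at 75 µM 4sU, the square is 0 µM and the triangle 200 µM. The 3 siCGGBP1 libraries of SYNE1 lie at 221 to 299 rpm, above all 5 siControl libraries at 27.8 to 49.0 rpm, while the other members overlap between groups except TMPO.

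With the rise of SYNE1, the make-up of the LINC transcripts was different. SYNE1 took 8.30%, 8.64% and 12.7% of the reads of the 5 LINC genes in siControl and 34.7%, 44.7% and 39.6% in siCGGBP1. It took 9.01% and 5.96% in the siControl libraries at 0 and 200 µM. The ratio of SYNE1 to SYNE2 reads was 0.164, 0.252 and 0.407 in siControl and 0.973, 1.68 and 1.38 in siCGGBP1. The summed LINC reads were 371 to 421 rpm in siControl and 638 to 669 rpm in siCGGBP1. These shares and sums follow from the SYNE1 values on which the gene was chosen.

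In SLAM-Seq, 4sU in newly synthesized RNA is alkylated and read as C in place of T, and GRAND-SLAM estimates the new-to-total ratio of a gene from such conversions. SYNE1 reads carried 28, 65 and 1 T-to-C conversions in siControl and 293, 328 and 111 in siCGGBP1. The libraries at 0 and 200 µM carried 1 and 2 conversions. Every siCGGBP1 library thus held more SYNE1 conversions than any siControl library. Reads with at least 2 conversions numbered 6, 1 and 0 in siControl and 95, 68.8 and 21 in siCGGBP1, again without overlap. Both counts grow with the SYNE1 reads on which the gene was chosen, so their lack of overlap follows in part from that choice and is no separate support.

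Per 100 covered T positions the SYNE1 groups did overlap. The rate was 0.258, 0.517 and 0.00444 in siControl and 0.381, 0.298 and 0.0862 in siCGGBP1, so that the siControl values enclosed the siCGGBP1 values. The new-to-total ratio was 3.19%, 18.7% and 0% in siControl and 8.85%, 6.29% and 1.26% in siCGGBP1, and these overlapped as well. The ratio of siControl replicate 2 had credible limits of 14.6% and 23.8% (0.05 and 0.95 quantiles), although only 1 of its reads held 2 or more conversions.

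Newly synthesized SYNE1 RNA, the read count multiplied by the ratio, was 11, 74 and 0 reads in siControl and 200, 223 and 47 in siCGGBP1. Replicate 2 of siControl exceeded replicate 3 of siCGGBP1, so the groups overlapped, with siCGGBP1 higher in 8 of 9 pairs of libraries. The fitted log2 fold change of newly synthesized RNA was 2.55 (SE 1.57), between 1.96 and 4.66 over 12 other settings and 4.66 without siControl replicate 2. The pairs and this fold change contain the SYNE1 read counts on which the gene was chosen, so they are no separate support. Reads not assigned to new RNA averaged 36.3 rpm in siControl and 247 rpm in siCGGBP1, so most of the added SYNE1 reads were of this kind.

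**Figure D2:**
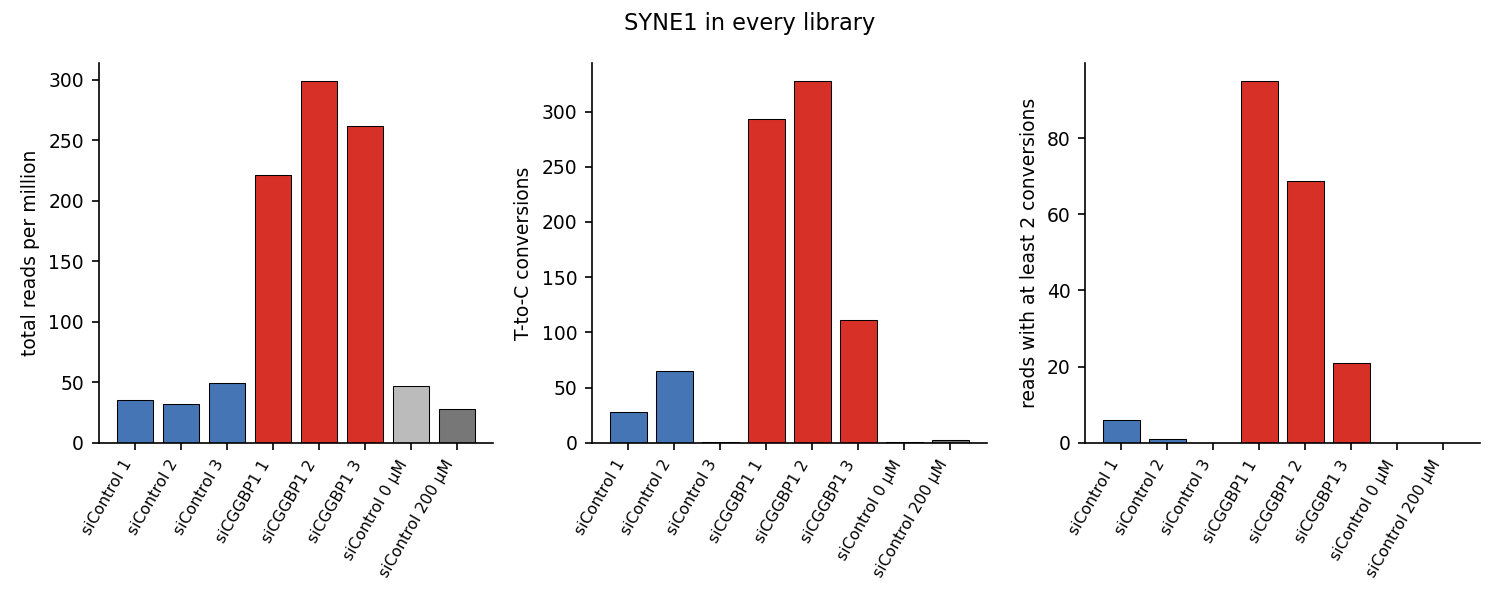
SYNE1 in each library as total rpm (left), T-to-C conversions (middle) and reads with at least 2 conversions (right); bars are single libraries, blue siControl and red siCGGBP1 at 75 µM 4sU, grey siControl at 0 and 200 µM. The siCGGBP1 bars exceed every siControl bar in all 3 panels, with 111 conversions in the lowest siCGGBP1 library and 65 in the highest siControl library, and the middle and right panels grow with the reads in the left one.

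None of the other LINC genes tested was called in total RNA. SYNE2 (ENSG00000054654, chromosome 14), which encodes nesprin-2, had 212.5, 127 and 120.5 rpm in siControl and 227.5, 178 and 190 rpm in siCGGBP1. Replicate 1 was the highest of both groups, and siCGGBP1 was higher in 7 of 9 pairs. Its log2 fold change was 0.37 (SE 0.25, edgeR adjusted p = 0.498), and 0.68 without siControl replicate 1. SYNE3 (ENSG00000176438, chromosome 14), the gene of the shorter nesprin-3 that links to plectin, had 52, 56 and 1 reads in siControl, and 8, 2 and 17.5 in siCGGBP1. It failed the minimum of 100 reads in 3 libraries and was not tested, and its groups overlapped.

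SUN1 (ENSG00000164828, chromosome 7) varied little between the libraries at 75 µM. It had 141, 165 and 154 rpm in siControl and 145, 151 and 157 rpm in siCGGBP1, with all siCGGBP1 values inside the siControl range. The log2 fold change was -0.02 (SE 0.19, adjusted p = 0.971). SUN2 (ENSG00000100242, chromosome 22) had 27.8, 42.5 and 62.8 rpm in siControl and 43.8, 41.3 and 51.0 rpm in siCGGBP1, again inside the siControl range. Its log2 fold change was 0.03 (SE 0.34, adjusted p = 0.976). The sign for SUN1 and SUN2 depended on which library was left out. SUN1 overlaps GET4 by 19882 bases and SUN2 overlaps DNAL4 by 15636 bases on the same strand in GENCODE, so the division of reads between them is uncertain. GET4 had 517 to 1243 reads and DNAL4 133 to 265 in the 6 libraries.

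Of the lamina genes, none was called in total RNA. LMNA (ENSG00000160789, chromosome 1), the source of lamins A and C, had 283, 359 and 239 rpm in siControl and 217, 346 and 204 rpm in siCGGBP1. The groups overlapped, and replicate 2 was the highest library of both. The log2 fold change was -0.20 (SE 0.24, adjusted p = 0.746), which moved to -0.030 without siControl replicate 2 and to -0.48 when replicate 2 of siCGGBP1 was left out. LMNB1 (ENSG00000113368, chromosome 5) had 99.8, 126 and 159 rpm in siControl and 126, 122 and 194 rpm in siCGGBP1. Its log2 fold change was 0.20 (SE 0.25, adjusted p = 0.761), and without siCGGBP1 replicate 3, its highest library, it was -0.038. LMNB2 (ENSG00000176619, chromosome 19) had 85.2, 138 and 130 rpm in siControl and 78.4, 106 and 103 rpm in siCGGBP1. Here replicate 1 was the lowest of both groups, and the log2 fold change was -0.30 (SE 0.25, adjusted p = 0.620).

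EMD (ENSG00000102119, chromosome X) had 68.3, 72.4 and 78.1 rpm in siControl. In siCGGBP1 it spread more widely, with 52.5, 99.8 and 64.4 rpm on both sides of the siControl values. The log2 fold change was -0.01 (SE 0.28, adjusted p = 0.988), of either sign when single libraries were left out. TMPO (ENSG00000120802, chromosome 12) had 125, 121 and 165 rpm in siControl and 94.1, 64.7 and 113 rpm in siCGGBP1. All 3 siCGGBP1 libraries of TMPO were below all siControl libraries, with 180 and 188 rpm in the siControl libraries at 0 and 200 µM. Its log2 fold change of -0.60 (SE 0.26) did not pass the test (edgeR adjusted p = 0.270), and it lay between -0.78 and -0.41 over 11 other settings. It was the member lower without overlap, a state found for 12.3% of tested genes. No member was called lower, against 0.957% of tested genes.

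**Figure D3:**
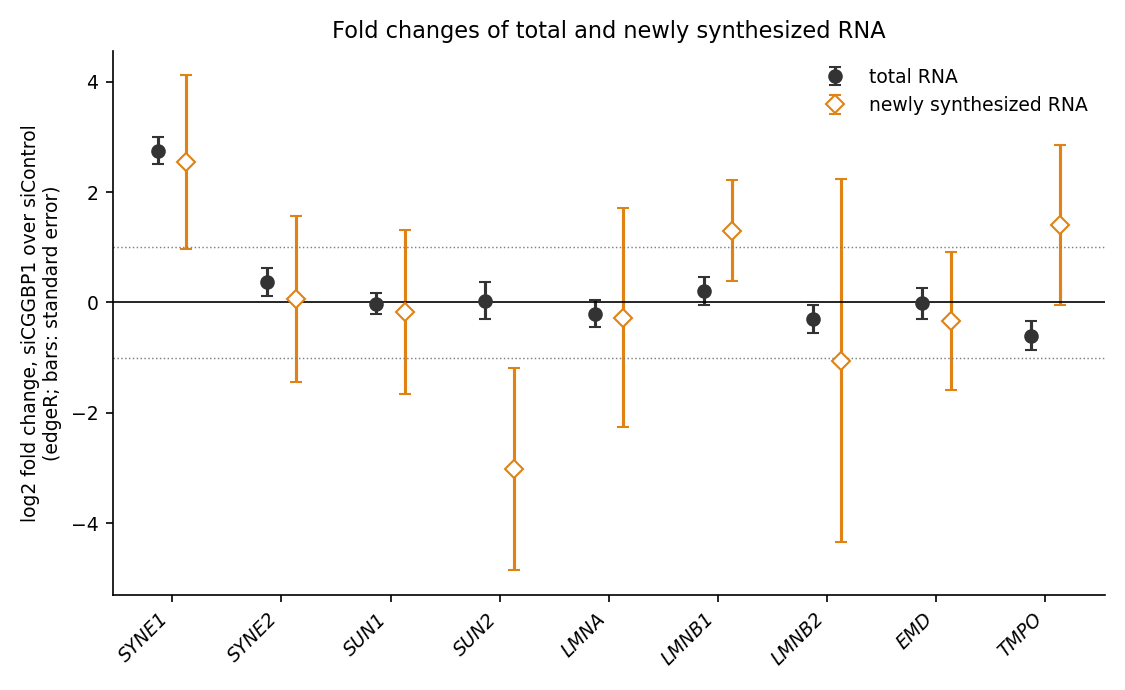
Log2 fold changes of total RNA (filled circles) and newly synthesized RNA (open diamonds) for the 9 tested members, siCGGBP1 over siControl, with standard errors as bars; dotted lines mark 1 and -1. Total RNA of SYNE1 lies at 2.75, that of the other 8 members between -0.60 and 0.37, and the bars of newly synthesized RNA are several times as long.

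The median log2 fold change of total RNA was 0.20 over the 4 tested LINC members and -0.20 over the 5 lamina members, beside 0.00 over all tested genes. The LINC value includes SYNE1, and over SYNE2, SUN1 and SUN2 the median was 0.03. Apart from SYNE1, 0 of 8 tested members were called by edgeR, with 1 of them, TMPO, at an unadjusted p under 0.05, and DESeq2 called 0 of 8. The background share at that unadjusted level in total RNA was 16.4%. The standard errors of these 8 genes were 0.19 to 0.34, and a p-value above the threshold does not show that their RNA stayed level.

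In siControl cells at 75 µM, LMNA was the most abundant member with 294 ± 60.9 rpm (SD, n = 3). SYNE2 (153 ± 51.4), SUN1 (153 ± 12.2), TMPO (137 ± 24.4), LMNB1 (128 ± 29.8) and LMNB2 (118 ± 28.6 rpm) followed and overlapped with their neighbours in this order. EMD (73.0 ± 4.93), SUN2 (44.4 ± 17.5), SYNE1 (38.7 ± 9.06) and SYNE3 (3.26 ± 2.77 rpm) were lower. Ranges of neighbours stood apart between LMNA and SYNE2, LMNB2 and EMD, EMD and SUN2, and SYNE1 and SYNE3. By its mean SYNE1 was the second lowest member in control cells, although the ranges of SYNE1 and SUN2 overlapped and SYNE1 was above SUN2 in replicate 1. With 261 rpm in siCGGBP1 its mean was above that of LMNA in the same libraries, 256 ± 78.3 rpm, within the spread of the latter.

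The siControl libraries at other 4sU doses differed from those at 75 µM for several lamina genes. LMNA had 136 rpm at 0 µM and 186 rpm at 200 µM, both below the 239 to 359 rpm at 75 µM. EMD, with 63.1 and 34.0 rpm, was also below its siControl range at both doses. LMNB1 (205 and 182 rpm), SUN1 (235 and 274 rpm) and TMPO (180 and 188 rpm) were above their siControl ranges at both doses. The ratio of LMNA reads to B-type lamin reads was 1.53, 1.36 and 0.825 in siControl, 1.06, 1.51 and 0.687 in siCGGBP1, and 0.445 and 0.599 at 0 and 200 µM. Replicate 3 had the lowest ratio of both groups at 75 µM. With 1 library per dose, dose and library cannot be told apart.

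The conversion rate without 4sU shows how far the label stands above background for each member. Over all tested genes the median was 0.0130 conversions per 100 T without 4sU and 0.215 in the 6 libraries at 75 µM pooled. SYNE1 (0.00336 and 0.228), SYNE2 (0.00924 and 0.218) and TMPO (0.00641 and 0.3185) had low backgrounds. EMD stood out with 1.00 conversion per 100 T without 4sU, above its 0.419 at 75 µM and higher than 98.4% of tested genes. LMNB2 also had more without 4sU (0.137) than at 75 µM (0.1035), and LMNB1 had 0.288 against 0.487. A higher rate without 4sU was found for 8.52% of tested genes. The new-to-total ratios of EMD, of 10.8% to 18.0% in the 6 libraries, come from conversion rates below that of the unlabelled library in all 6.

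**Figure D4:**
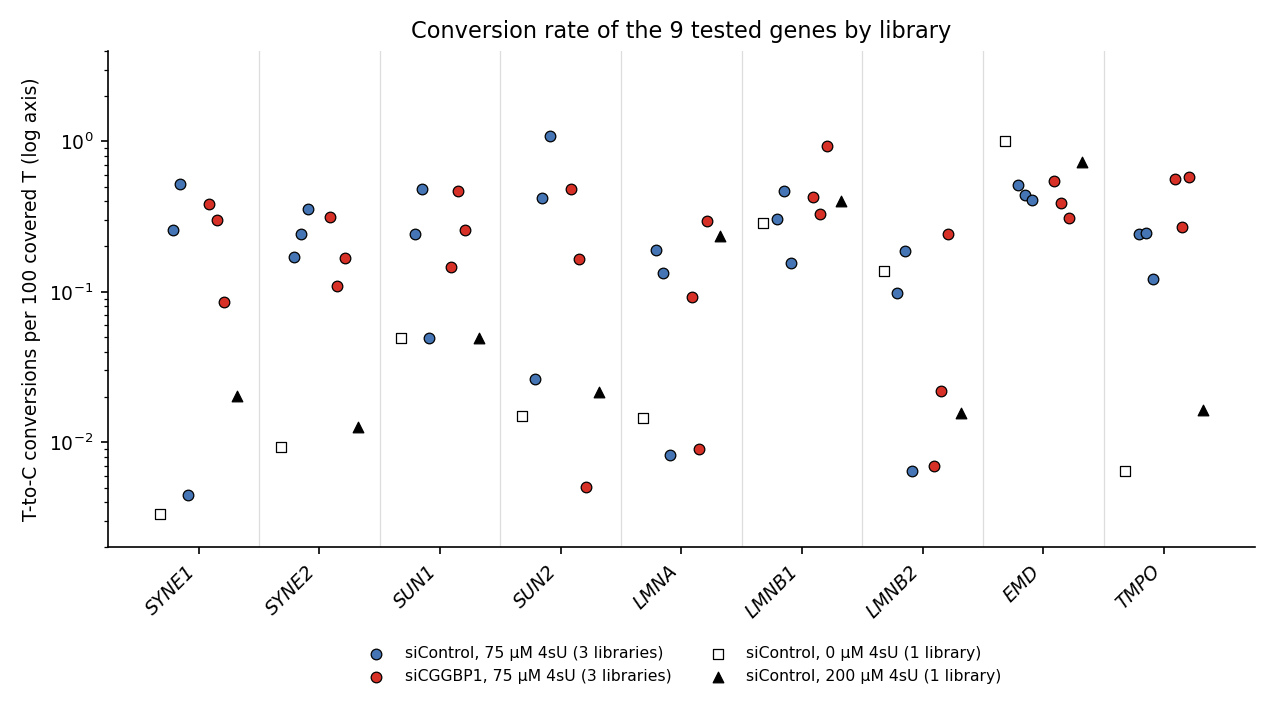
T-to-C conversions per 100 covered T for the 9 tested members in each library, on a log axis; circles are libraries at 75 µM 4sU, the square is 0 µM and the triangle 200 µM. The square lies far below most circles for SYNE1, SYNE2 and TMPO, and above every circle for EMD, at 1.00.

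The new-to-total ratios of the members varied strongly between replicates. Credible limits did not overlap in 40 of the 54 pairs of libraries of the same group over the 9 tested members (74.1%). The same share over all tested genes was not computed, so whether this spread is particular to the members is not known. EMD in siControl, with 16.9%, 16.2% and 15.6%, was the case where all 3 replicates overlapped. In siControl replicate 3 the ratio was listed at 0 for SYNE1, SUN1, LMNA and LMNB2, but for SUN2 it was 49.0%, against 0% and 9.93% in the other replicates. This SUN2 ratio came from 221 conversions, while its count of reads with 2 or more conversions was 0. In siCGGBP1 replicate 3 the ratio of LMNB1 was 28.1%, against 10.8% and 7.79%.

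Apparent half-lives in siControl, computed from the posterior mean ratio and the 60 min label for RNA at constant level, inherit this spread. They were 22.8, 13.6 and 7.15 h for SYNE2, 14.2, 12.8 and 37.1 h for TMPO, and 8.84, 4.26 and 19.5 h for LMNB1. In the siControl library at 200 µM SYNE2 had 315 h and TMPO 693 h, each with a ratio listed at 0. The values at 75 µM therefore do not fix a turnover for SYNE2 or TMPO. SYNE1 ranged from 3.29 to 266 h and SUN1 from 5.82 to 247 h, so no turnover can be assigned to them. LMNB1 had 0.303, 0.465 and 0.156 conversions per 100 T in the siControl libraries at 75 µM, against 0.288 without 4sU. Its half-lives therefore assign no turnover either.

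In newly synthesized RNA, 0 of the 9 tested members were called by edgeR, against 0.0493% of tested genes, with 0 at an unadjusted p under 0.05, a level that 3.15% of tested genes had. DESeq2 called 0 of the 7 members with an adjusted p, and gave none for LMNA and LMNB2. TMPO gave 59, 77 and 24 newly synthesized reads with siControl and 147, 38 and 288 with siCGGBP1, a log2 fold change of 1.41 (SE 1.45), opposite in sign to its total RNA. SYNE2 gave 62, 76 and 128 newly synthesized reads with siControl and 145, 30 and 109 with siCGGBP1. The siCGGBP1 values of SYNE2 lay on both sides of those in siControl, and the log2 fold change was 0.06 (SE 1.51). SUN1 gave 74, 226 and 0 newly synthesized reads with siControl and 19, 92 and 190 with siCGGBP1, with a log2 fold change of -0.17 (SE 1.49).

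Single libraries set the values of several other members. SUN2 gave 0, 52 and 358 newly synthesized reads with siControl and 31, 15 and 0 with siCGGBP1, and its log2 fold change of -3.02 was -0.56 without siControl replicate 3. LMNB1 gave 75, 231 and 63 newly synthesized reads with siControl and 140, 113 and 782 with siCGGBP1, and its log2 fold change of 1.30 was 0.15 without siCGGBP1 replicate 3. LMNA gave 84, 99 and 0 newly synthesized reads with siControl and 3, 0 and 189 with siCGGBP1, with a log2 fold change of -0.28 that was -5.13 without siCGGBP1 replicate 3. LMNB2 had at most 36 newly synthesized reads in any library, and EMD 97 to 144. The log2 fold change of LMNB2 was -1.06, but -7.05 without siCGGBP1 replicate 3 and -0.082 without siControl replicate 2, and that of EMD was -0.33. Adjusted p-values of all members were 0.993 or higher (edgeR).

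Other genes of the nuclear envelope and its cytoskeletal links were read from 5 lists of 58 genes, of which 53 were found and 46 tested. In total RNA edgeR called 0 of the 46, against 0.444% of all tested genes called higher and 0.957% called lower. An unadjusted p under 0.05 was found for 10 of them, against 16.4% of all tested genes, and DESeq2 called 0 of the 44 with an adjusted p. Their median log2 fold change was -0.04, and 9 were higher and 6 lower without overlap between the groups, against 12.0% and 12.3% of all tested genes. In newly synthesized RNA edgeR called 0, with 2 at an unadjusted p under 0.05, against 3.15% of all tested genes. There DESeq2 called 0 of the 28 with an adjusted p.

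Among 7 tested further LINC and torsin genes the median was 0.56, with 4 higher and 0 lower without overlap, beside the 12.0% and 12.3% over all tested genes. These 4, named after their values were seen, were SUN3, TOR3A, TOR1AIP1 and TOR1AIP2, the last 2 encoding activators of the torsin ATPases in the envelope lumen. The lack of overlap refers to the libraries at 75 µM. At 0 and 200 µM siControl had 250 and 304 rpm of SUN3, against at most 226 rpm in siCGGBP1. TOR1AIP1 had 77.8 and 70.3 rpm there, against at most 69.7, and TOR1AIP2 125 and 193 rpm, against at most 157. TOR3A had 22.3 and 27.7 rpm, below its lowest siCGGBP1 value of 28.2 rpm. TOR3A had a log2 fold change of 1.26 (SE 0.46, adjusted p = 0.185) and TOR1B, another torsin, -1.22 (SE 0.72, adjusted p = 0.431). TOR1B had 43.8 rpm in siControl replicate 3, against 13.3 and 14.15 rpm in replicates 1 and 2. Over 13 inner membrane and lamina-binding genes the median was -0.25, with 9 of 13 values below 0. NEMP1, an inner membrane protein, had -1.19 (SE 0.50, adjusted p = 0.262), and LEMD2, a LEM-domain protein as EMD and TMPO encode, had -0.81 (SE 0.43, adjusted p = 0.371). NEMP1 had 74.3 rpm in siControl replicate 3, against 23.8 and 20.4 rpm in replicates 1 and 2.

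The 6 lamin processing enzymes had a median of -0.07. FNTA, the shared subunit of the transferases that attach prenyl groups to proteins such as prelamin A and B-type lamins, had 1.07 (SE 0.34, adjusted p = 0.136). ZMPSTE24, the protease that cleaves prelamin A, had -0.22 (SE 0.24, adjusted p = 0.720). Of the 9 spectrin-repeat and linker genes, relatives of the nesprins in build, UTRN had 0.78 (SE 0.23, adjusted p = 0.104) and SPTAN1 0.73 (SE 0.22, adjusted p = 0.112), with a list median of -0.07. The 11 cytoskeletal partners of nesprins had a median of -0.04. NDEL1, a dynein regulator, had 1.19 (SE 0.55, adjusted p = 0.311), and FHOD1, a formin that binds nesprin-2, had -0.98 (SE 0.30, adjusted p = 0.124). NDEL1 had 62.8 rpm in siCGGBP1 replicate 3, against 19.3 and 18.8 rpm in replicates 1 and 2. FHOD1 had 62.5 and 28.1 rpm in siControl at 0 and 200 µM, against 27.9 to 30.1 rpm in siCGGBP1.

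The tested chromosomal neighbours of SYNE1 were not called, against 0.444% of all tested genes called higher and 0.957% called lower. ESR1, which overlaps SYNE1 by 7933 bases on the opposite strand, had at most 44 reads in any library. Within 1000000 bases, 6 other genes were tested: AKAP12, ZBTB2, RMND1, ARMT1, FBXO5 and MTRF1L. Their log2 fold changes were -0.27 for AKAP12, -0.69 for ZBTB2, -0.04 for RMND1, -0.89 for ARMT1, 0.42 for FBXO5 and 0.44 for MTRF1L, with adjusted p-values of 0.379 to 0.981 (edgeR). All 6 overlapped between the groups except AKAP12, whose siCGGBP1 libraries lay below those of siControl. Such a state was found for 12.3% of tested genes.

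Over the 8 libraries, the genes whose log2 rpm followed SYNE1 most closely were CCND2 (Pearson r = 0.975), PTPN21 (0.974), NPC2 (0.973), ZNF395 (0.967) and ATRAID (0.967). The 8 points share the split of SYNE1 into 3 high siCGGBP1 and 5 low siControl libraries, so these values are a description. In total RNA CCND2 had a log2 fold change of 1.31, PTPN21 1.47, NPC2 1.14, ZNF395 1.54 and ATRAID 0.59, the last without a call (adjusted p = 0.124). Among the members SYNE2 came nearest to SYNE1 with r = 0.562, at rank 1347 of the tested genes. EMD had 0.356, LMNA 0.105, SUN2 0.04, LMNB1 -0.02, LMNB2 -0.461 and SUN1 -0.484, and TMPO was farthest with -0.784.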

How the data were processed

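SLAM-Seq was analysed in 6 libraries at 75 µM 4sU, 3 for each siRNA, with 2 single control libraries beside them. The deposited expected counts of reads, conversions and covered T positions, and the new-to-total ratios deposited as a fraction, were made by the authors with GRAND-SLAM. Before that, ribosomal reads were removed with Bowtie2 2.3.0 and the rest mapped with STAR 2.5.3a to GRCh38 (Ensembl 90), per the submitters' processing notes and methods. The counts are not normalized and can be fractional. Columns whose names contain min2 were taken to count reads carrying 2 or more conversions. The strand setting of the counting and any removal of PCR duplicates are not given in the sources used here, and without molecular identifiers intervals cover counting error only.

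Counts were rounded and fitted with edgeR 4.0.16 in R 4.3.3 (quasi-likelihood F test, TMM, Benjamini-Hochberg) over the 10138 genes that reached 100 reads in 3 or more of the 6. For newly synthesized RNA, each read count was scaled by its maximum a posteriori ratio, with library sizes and factors from total reads. Genes were called at adjusted p values below 0.05 when the log2 fold change also exceeded 1 in size. The fits were tested on simulated data. For newly synthesized RNA the simulated spread was far below the fitted one, so that test does not cover the fit at its real spread. No spike-in scale was used, so levels are relative. Correlations used log2 rpm with a prior of 1 read. Alternatives were DESeq2 1.42.0, other scalings, filters and estimates of new RNA, a replicate block, and leaving out each library.

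Named genes are the members, CGGBP1, the called genes or otherwise the 2 genes of largest change in each list, the 5 genes nearest to SYNE1 by correlation, and its tested neighbours. Genes that overlap a member (GET4, DNAL4, ESR1), marker genes, SUN3, TOR1AIP1 and TOR1AIP2 were named beside this rule, with values known. Members, lists and tests were chosen with earlier results of these data known. Gene positions are from GENCODE 44 on GRCh38 and promoters from RefSeq. Protein sequences were not used here, and listed genes without a match were not analysed here.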

Additional observations from a re-analysis of the deposited data

Results flagged for a closer look

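The siControl library with 200 µM 4sU entered no comparison, and 2 members had a higher rate of T-to-C conversions there than in the library without 4sU, beyond counting error. LMNA had 0.236 conversions per 100 covered T at 200 µM (exact Poisson 95% interval 0.197 to 0.281), against 0.0144 without 4sU (0.00659 to 0.0253), and 0.118 in the 6 libraries at 75 µM pooled. LMNB1 had 0.400 at 200 µM (0.351 to 0.454), against 0.288 without 4sU (0.259 to 0.319) and 0.487 at 75 µM. At 200 µM LMNA had 127 conversions but 1 read with 2 or more, and LMNB1 had 238 conversions and 0 such reads. The intervals treat conversions as independent, and whether these stem from 4sU was not tested. The other 7 tested members were not separated from the library without 4sU in this direction, and SYNE1 had 2 conversions at 200 µM. The 200 µM ratio was listed at 0 for 5 of the 9 tested members. For neither count was the share over all tested genes computed, so neither is a result about the members. Each dose has 1 library, so dose and library cannot be told apart.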

How the results depend on the processing

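SYNE1, SYNE2, LMNA, LMNB2 and TMPO kept the direction of their total RNA under all 11 alternatives, and no member gained or lost a call under an alternative that gave an adjusted p. DESeq2 gave none for newly synthesized LMNA and LMNB2. With single libraries left out, the total RNA log2 fold change ranged from -0.080 to 0.034 for SUN1, from -0.21 to 0.37 for SUN2, from -0.038 to 0.39 for LMNB1 and from -0.32 to 0.18 for EMD, and so took both signs. In newly synthesized RNA it ranged from -0.61 to 0.48 for SYNE2, from -0.82 to 1.06 for SUN1 and from -5.13 to 0.31 for LMNA. With conversion counts instead of the ratio SUN1 had 0.079, and TMM on new reads gave -0.049 for SYNE2. The cause of these changes of sign was not tested.

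Counts over all genes moved more. Genes called higher in total RNA numbered 45, against 166 with DESeq2, 121 without a filter beyond 1 read, and 15 to 48 with single libraries left out. Genes called lower numbered 97, against 205, 202 and 33 to 100. In newly synthesized RNA, 3 genes were called higher, against 11 with DESeq2, 11 with conversion counts, 1 with TMM on new reads and 1 to 3 with single libraries left out. There 2 were called lower, against 16 with DESeq2, 7 with conversion counts, 4 with the posterior mean ratio and 1 to 4 with single libraries left out.

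Same-numbered libraries deviated together with correlations of 0.105, 0.169 and 0.083, so the numbers were not taken as pairs, although each library correlated best with its own number. With the replicate block 53 genes were called higher and 107 lower in total RNA, and 1 and 1 in newly synthesized RNA. The block gave log2 fold changes of newly synthesized RNA of -0.22 for SYNE2 and 0.0029 for SUN1, both with changed sign.

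The biological coefficient of variation was 0.399 in total and 1.78 in newly synthesized RNA, which limits what can be called in the latter. Scaling by DESeq2 size factors moved no list median across 0. The planned comparison of protein sequences was not run.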
